A study of Rattus norvegicus with 9 samples.

Results

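The tachykinin system of the rat spinal cord was described here through 6 genes: the precursor genes Tac1 and Tac3, the receptor genes Tacr1, Tacr2 and Tacr3, and Mme, which encodes the peptidase neprilysin. They were chosen by name for their place in substance P signalling and make up 6 of the 34890 loci in the expression table. The RNA came from the side of the injury in segments L3 to L6 of the spinal cord of wild-type male Sprague Dawley rats, and the age of the rats was not given in the sources used here. The 9 samples formed 3 groups of 3. The JA group had a sham operation and received saline, the SNI group had spared nerve injury and also received saline, and the PLM group had the same injury but received paeoniflorin together with liquiritin. Paeoniflorin was given at 20.65 mg/mL, and the labels give liquiritin as 3.98, 3.99 and 3.100 mg/mL in PLM replicates 1, 2 and 3. The study's methods describe a single dose for the whole PLM group, so the labels do not establish that its replicates were dosed differently. In spared nerve injury the tibial and common peroneal branches of the sciatic nerve are tied and cut and the sural branch is spared, whereas the sham operation leaves all of them intact. No sham-operated rats given the compounds were among these samples, so an effect of the compounds in uninjured cord could not be examined. The labels call the samples biological replicates and do not say how many animals gave each of them.

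Substance P and neurokinin A are cut from the Tac1 precursor, and neurokinin B comes from Tac3. The receptors NK1, NK2 and NK3, encoded by Tacr1, Tacr2 and Tacr3, prefer substance P, neurokinin A and neurokinin B respectively, and all couple mainly through Gq proteins to phospholipase C. In the dorsal horn, substance P is released by nociceptive primary afferents and by local excitatory neurons, and NK1 marks many of the projection neurons that carry pain signals to the brain. Because the cell bodies of primary afferents lie in the dorsal root ganglia, Tac1 RNA in cord tissue comes mainly from spinal neurons. In these bulk samples, fewer cells of a type and less RNA per cell cannot be told apart.

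Promoters of Tac1, Tacr1 and Tacr3, picked after their values were seen, are shown. Of these genes only Tacr1 had an adjusted p under 0.05 in a comparison below, and not after median-centring. The sequences give the position of the cyclic AMP response element core, which was searched as CGTCA on both strands (TGACG on the other). RefSeq promoter sequences, from 250 bases before to 50 bases after the start of each gene, were matched for 5 of the 6 genes by symbol in the rat build GRCr8. All 5 genes lie on the plus strand. In the sequences below, capitals mark the searched core.
Tac1: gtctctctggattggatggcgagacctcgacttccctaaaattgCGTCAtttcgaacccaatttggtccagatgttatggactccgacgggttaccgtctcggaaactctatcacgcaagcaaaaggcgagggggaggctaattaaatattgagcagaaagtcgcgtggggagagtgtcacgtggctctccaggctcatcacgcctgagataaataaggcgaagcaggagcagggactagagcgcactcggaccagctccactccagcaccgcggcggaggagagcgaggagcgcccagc
Tacr1: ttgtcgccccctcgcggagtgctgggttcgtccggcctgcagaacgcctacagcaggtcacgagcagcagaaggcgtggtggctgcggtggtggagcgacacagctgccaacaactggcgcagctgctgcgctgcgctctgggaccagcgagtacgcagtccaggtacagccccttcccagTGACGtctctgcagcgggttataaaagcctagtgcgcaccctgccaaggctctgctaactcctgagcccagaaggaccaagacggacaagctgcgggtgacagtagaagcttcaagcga
Tacr3: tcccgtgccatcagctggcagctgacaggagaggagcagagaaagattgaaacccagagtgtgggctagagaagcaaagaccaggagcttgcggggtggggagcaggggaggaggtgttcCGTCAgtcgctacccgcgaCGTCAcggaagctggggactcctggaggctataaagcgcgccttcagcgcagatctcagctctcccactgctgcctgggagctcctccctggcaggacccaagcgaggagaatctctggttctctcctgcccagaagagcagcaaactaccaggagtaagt

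The Tac1 window (chr4:36645333-36645632) held the core 206 bases before the start and the letters CACGTG 72 bases before it. In the Tacr1 window (chr4:116478367-116478666) the core lay 69 bases and the letters TATAAA 50 bases before the start. The Tacr3 window (chr2:225940247-225940546) held the core at 130 and at 111 bases before the start, and TATAAA 82 bases before it. The Tacr2 window (chr20:30751395-30751694) had the core 31 bases into the gene, and these letters were not in the Mme window (chr2:149872247-149872546). Among 33469 rat promoters of the same length, 21.2% held the core, 14.2% held TATAAA and 6.42% held CACGTG on either strand, and no matches in the 5 windows overlapped. These matches are a description of the sequence.

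The precursors were by far the most abundant RNAs of the system. Levels are given in TPM, a measure of transcript abundance scaled for gene length and for the total of each sample, so they can be compared between genes. Over the 9 samples Tac1 averaged 56.9 TPM and Tac3 58.4 TPM, above 87.5% and 87.8% of the 15503 loci that reached 1 TPM on average. Tacr3 averaged 1.96 TPM, Mme 1.90 TPM and Tacr1 1.04 TPM, above 11.4%, 10.8% and 0.593% of those loci. Tacr2 averaged 0.0256 TPM and was listed at 0 in 5 of the 9 samples. Tac1 and Tac3 did not differ beyond their spread in this order, and neither did Tacr3 and Mme.

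**Figure D1:**
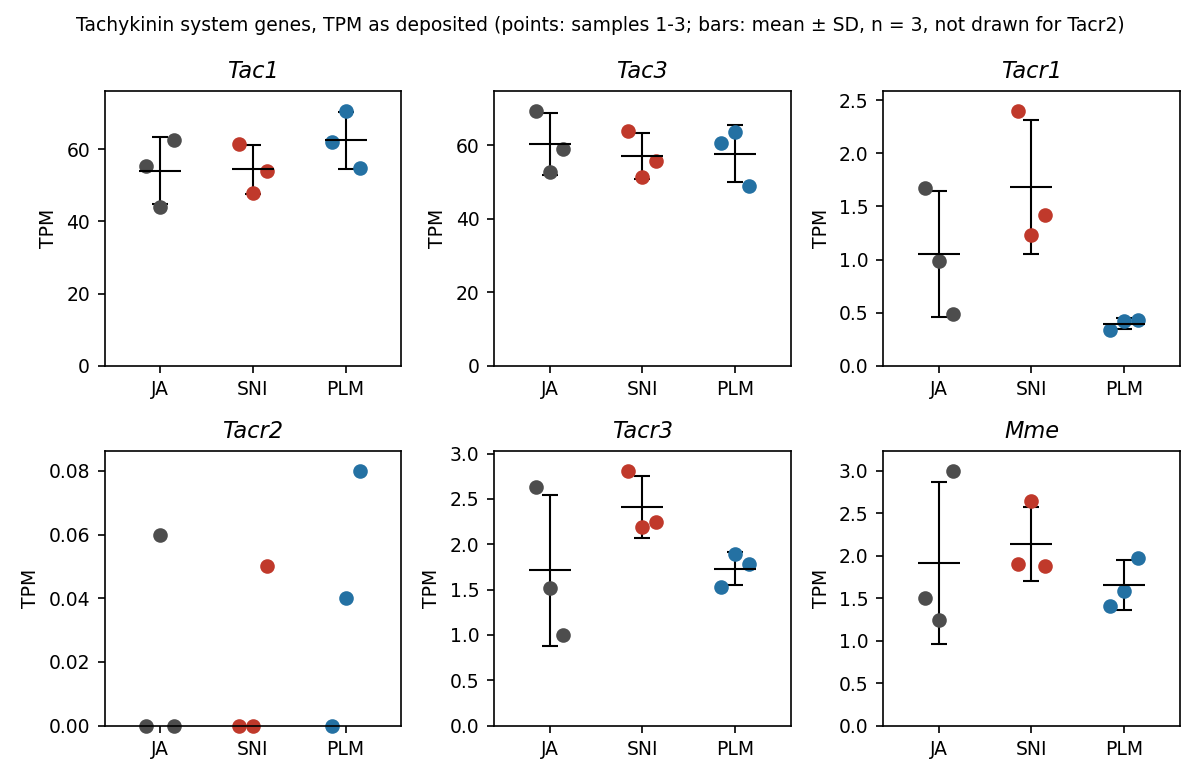
TPM of the 6 genes in each sample of the JA, SNI and PLM groups, with 1 point per sample and bars for the mean ± SD (n = 3, not drawn for Tacr2). The 3 PLM samples lay between 0.34 and 0.43 TPM for Tacr1, below every JA and SNI sample, while the Tac1 and Tac3 groups overlapped.

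Samples differed in composition across the groups, and that bears on each fold change below. TPM is a share of the whole library, and the median log2(TPM + 1) was 3.47 to 3.53 in SNI, 3.30 to 3.46 in JA and 3.18 to 3.30 in PLM. Mitochondrial transcripts took 23.7% to 26.1% of the TPM in SNI, 25.3% to 32.8% in JA and 31.3% to 32.8% in PLM. The median log2 fold change of all tested loci was -0.21 in PLM versus SNI, 0.12 in SNI versus JA and -0.10 in PLM versus JA. Each fold change of the 6 genes is given as deposited and again after subtracting each sample's median (median-centred). All fold changes are differences of log2(TPM + 1), so that changes of weakly expressed genes are understated, and adjusted p-values come from limma over all loci that averaged 1 TPM or more in the samples compared. The 3 comparisons share their groups in pairs, so their results are not independent. Neuronal, oligodendrocyte, astrocyte and microglial markers were detected in every sample, whereas of 11 markers of primary sensory neurons 6 averaged under 1 TPM and Mrgprd was at 0 throughout.

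PLM compared with SNI asks what the compounds did in injured rats. Here Tacr1 was the only gene of the system that passed the test, as deposited but not after median-centring. Tacr1 entered the test only through SNI, where it averaged 1.68 TPM against 0.397 TPM in PLM. As deposited, 1 of the 5 tested genes had an adjusted p under 0.05 in limma, against 13.9% of all loci, and after median-centring 0 of 5 did, against 0.814% of all loci. At an unadjusted p under 0.05, limma called 1 of the 5 as deposited, against 37.1% of all loci, and 2 of the 5 after median-centring, against 16.9%. Of the 5, 0 met the fold rule, which joins an absolute log2 fold change above 1 to an unadjusted p under 0.05, against 1.65% of loci. That count rests on the added 1 TPM, since with 0.1 TPM in its place Tacr1 differed by -1.79 (adjusted p 0.0371 in limma) and met the rule, against 2.47% of loci, as it did at -1.00 after removal of mitochondrial genes, against 1.41% of loci. The SNI and PLM samples did not overlap for 2 of the 5 as deposited, against 43.5% of loci, and for 2 of the 5 after median-centring, against 24.0%.

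Tacr1, the gene of the substance P receptor (ENSRNOG00000005853), measured 2.40, 1.23 and 1.42 TPM in SNI replicates 1, 2 and 3. Its level was 0.34, 0.42 and 0.43 TPM in the PLM samples and 1.67, 0.99 and 0.49 TPM in the JA samples. All PLM samples lay below all SNI and all JA samples, and SNI and JA overlapped. The mean of SNI, 1.68 ± 0.628 TPM, was 4.24-fold higher than that of PLM, 0.397 ± 0.0493 TPM (SD, n = 3). As deposited, Tacr1 fell by 0.92 on the log2 scale from SNI to PLM (SE 0.21, 95% interval -1.43 to -0.41), with an adjusted p of 0.0407 in limma. After median-centring the difference was -0.67 (SE 0.20, 95% interval -1.15 to -0.19) with an unadjusted p of 0.0142 and an adjusted p of 0.181 in limma, so the call did not hold on that scale. Tacr1 reached a mean of 1 TPM over these 6 samples only through the SNI group, where it was high, and a fit with no limit on low levels gave an adjusted p of 0.0416 in limma. The exact permutation test of the deposited values gave p = 0.1, two-sided, the smallest that 3 samples against 3 can give. The call also depended on single samples: without PLM replicate 1 the adjusted p in limma was 0.117, and without PLM replicate 2 it was 0.101. It was 0.0752 without PLM replicate 3, 0.0735 without SNI replicate 1 and 0.0746 without SNI replicate 3.

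Median-centred log2 levels of Tacr1 were 0.62, 0.62 and 0.59 in PLM and 1.61, 1.04 and 1.18 in SNI. They were 1.33, 1.00 and 0.65 in JA, so the PLM samples remained the lowest of the 9 on this scale too, with JA replicate 3 close above them. SNI against JA gave a Tacr1 difference of 0.40 (SE 0.28, 95% interval -0.27 to 1.07, adjusted p 0.632 in limma) as deposited and 0.28 (adjusted p 0.891) after median-centring. In PLM versus JA the Tacr1 mean over the 6 samples was under 1 TPM, and the gene did not enter the test. JA and PLM did not overlap, with a mean 2.65-fold higher in JA and an exact permutation p of 0.1. A limma fit with no limit on low levels gave -0.51 (SE 0.21, 95% interval -1.03 to -0.00), with an unadjusted p of 0.0493 and an adjusted p of 0.523.

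Tacr3, the neurokinin B receptor gene (ENSRNOG00000009372), stood at 2.81, 2.19 and 2.25 TPM in SNI. PLM samples had 1.53, 1.89 and 1.78 TPM and JA samples 2.63, 1.52 and 1.00 TPM. Every SNI sample was above every PLM sample, whereas the JA samples spanned a wider range than either. The difference from SNI to PLM was -0.32 as deposited (SE 0.13, 95% interval -0.64 to 0.00439, adjusted p 0.139 in limma), and the exact permutation p was 0.1. It shrank to -0.07 (95% interval -0.36 to 0.21, adjusted p 0.800) after median-centring, where the groups overlapped. SNI against JA gave 0.37 as deposited (95% interval -0.21 to 0.95, adjusted p 0.623 in limma) and 0.25 (adjusted p 0.889) after median-centring. PLM against JA gave 0.05 (95% interval -0.52 to 0.62, adjusted p 0.950 in limma) and 0.17 (adjusted p 0.770) on the same scales. Tacr2, the neurokinin A receptor gene (ENSRNOG00000050658), was listed between 0 and 0.08 TPM and was not tested.

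Because both receptor genes were lower in PLM than in SNI as deposited, their ratio within each sample, which does not depend on the scaling, was also taken. This ratio and the precursor ratio given later were chosen after the values were seen and are reported without a test. The Tacr1 to Tacr3 ratio was 0.222, 0.222 and 0.242 in PLM against 0.854, 0.562 and 0.631 in SNI. It was 0.635, 0.651 and 0.490 in JA. The 3 PLM samples lay close together and below the other 6, with a mean of 0.229 ± 0.0112 compared with 0.682 ± 0.153 in SNI and 0.592 ± 0.0888 in JA (SD, n = 3). On the log2 scale the ratio differed by -1.56 between PLM and SNI, by -1.36 between PLM and JA and by 0.19 between SNI and JA. Leaving out any 1 sample kept the first difference between -1.68 and -1.38 and the second between -1.49 and -1.29, whereas the third ranged from 0.02 to 0.32.

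**Figure D2:**
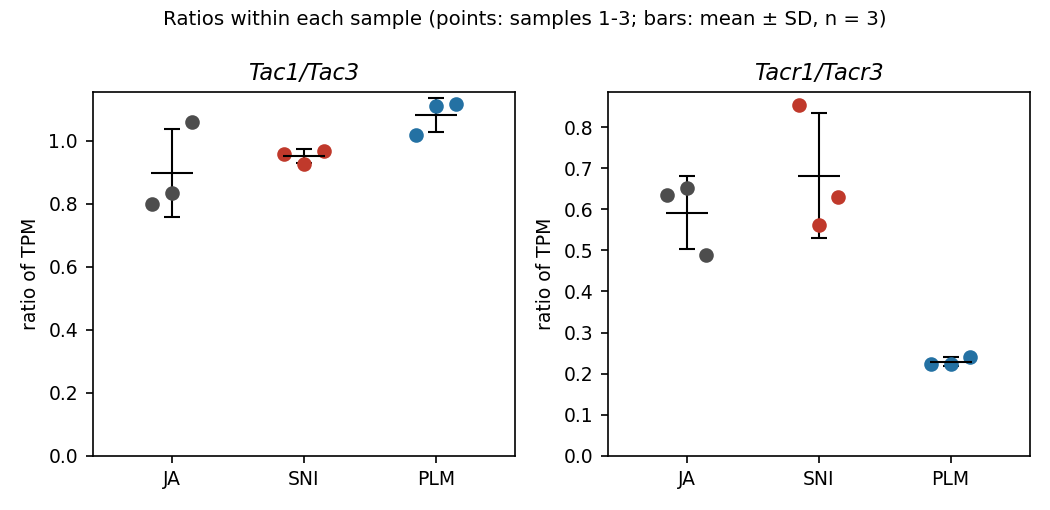
Ratios of TPM within each sample, Tac1 to Tac3 and Tacr1 to Tacr3, with 1 point per sample and bars for the mean ± SD (n = 3). The Tacr1 to Tacr3 ratio was 0.222 to 0.242 in PLM and at least 0.490 in the other 6 samples.

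Astrocyte markers, like Tacr1, were lower in PLM than in SNI. The summed level of 14 astrocyte genes, among them Gfap and the glutamate transporter gene Slc1a2, was 3278 to 3949 TPM in PLM, 6259 to 7525 TPM in SNI and 4464 to 7377 TPM in JA. In PLM versus SNI, 13 of the 14 fell in limma at an adjusted p under 0.05, with a median log2 fold change of -1.35, and 10 of the 14 did so after median-centring, with a median of -1.11. Over all loci the shares called were 13.9% and 0.814%, and the medians -0.21 and 0.04. Within groups the orders of Tacr1 and of the astrocyte sum differed. JA replicate 3 had the least Tacr1 and the lowest sum of its group. In PLM the order was reversed: replicate 1 had the least Tacr1 and the highest sum, 3949 TPM. PLM replicate 3 had the most Tacr1 and the lowest sum, 3278 TPM. In SNI the least Tacr1 was in replicate 2 and the lowest sum in replicate 3. None of the 14 markers was at 0. Values of other marker lists in PLM versus SNI are read beside the same shares and medians of all loci. Of 9 tested genes of meninges and fibroblasts, Igf2, Slc6a13 and Bmp6 fell in limma as deposited, none of them after median-centring, with a list median of -0.58. Of 5 motor neuron markers only Slc5a7 fell as deposited, with a list median of -0.49, and of 10 microglial markers only Tmem119 fell as deposited (adjusted p 0.0378 in limma), with a list median of 0.03. Neither call held after median-centring. On that scale the microglial median was 0.28. Of the 10 microglial markers, 7 then had an unadjusted p under 0.05 in limma in either direction, against 16.9% of all loci, and 0 were called. The 8 Schwann cell markers had a median of -0.63 as deposited and -0.38 after median-centring, with 7 of the 8 below 0 as deposited, and 7 blood cell genes had a median of 0.56, with 0 called in limma in either list and 1 and 3 genes at an unadjusted p under 0.05. The part of any of these lists in the Tacr1 result was not tested. Neuron markers varied among the sham-operated samples, and the sum of 12 general neuron markers, carried largely by the neurofilament genes Nefl, Nefm and Nefh, was 5866, 3069 and 3399 TPM in JA replicates 1, 2 and 3, against 5749 to 7281 TPM in SNI and 4899 to 5707 TPM in PLM. JA replicates 2 and 3 were the JA samples with the least Tacr1 and Tacr3, and the part of this in the JA values was not tested.

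Markers of dorsal horn neurons gave 2 calls between PLM and SNI among 13 excitatory and 12 inhibitory markers, against 13.9% of all loci. The 15 measured markers of excitatory dorsal horn neurons summed to 748 to 899 TPM in SNI and 794 to 884 TPM in PLM. Most of that sum was Sst, and without it the other 14 summed to 277 to 343 TPM in SNI and 292 to 309 TPM in PLM. Of 13 tested, 10 had a log2 fold change below 0 as deposited, against 85.0% of all loci, with a median of -0.10 beside -0.21, and only Reln, a secreted guidance protein of these neurons, fell (adjusted p 0.0327 in limma). Among 12 tested markers of inhibitory dorsal horn neurons only the nuclear receptor gene Rorb fell (adjusted p 0.0327 in limma), a gene that reached the 1 TPM limit only through SNI (1.98 TPM on average, against 0.763 TPM in PLM), and neither call held after median-centring. The 3 tested markers of superficial projection neurons, the cells in which NK1 is best known, gave 0 calls in limma and 0 at an unadjusted p under 0.05, with a median log2 fold change of -0.27 beside -0.21 over all loci. All 5 genes of that list, the untested Phox2a and Nms included, summed to 24.2 to 28.0 TPM in SNI and 22.03 to 24.69 TPM in PLM, so the ranges overlapped, but most of that sum was Lypd1, at 18.70 to 22.69 TPM in SNI and 18.15 to 19.77 TPM in PLM.

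**Figure D3:**
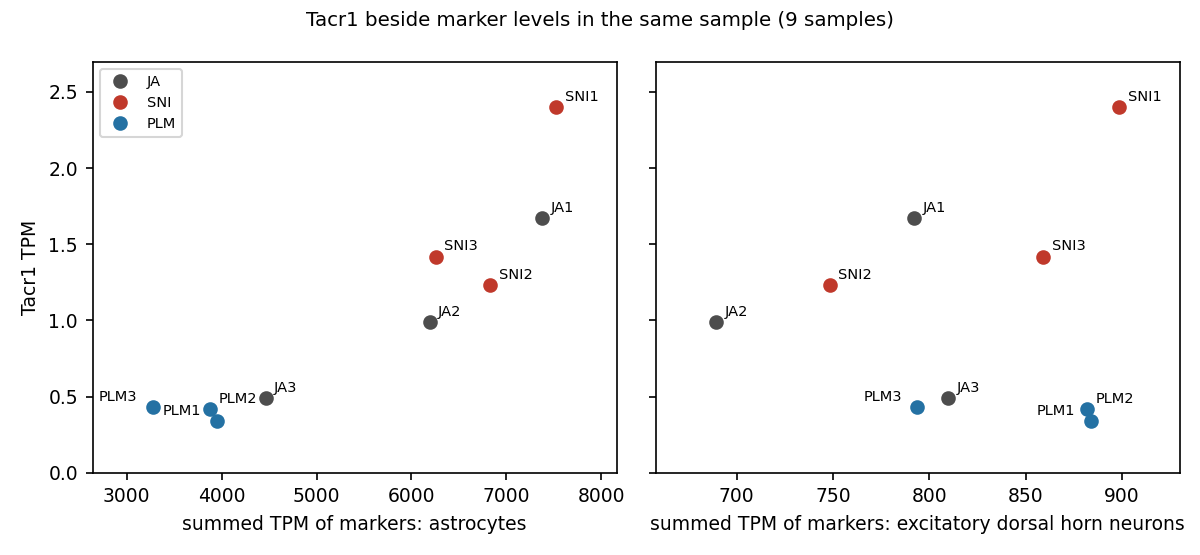
Tacr1 TPM of each of the 9 samples against the summed TPM of astrocyte markers (left) and of excitatory dorsal horn neuron markers (right), with points coloured by group. The PLM samples had astrocyte sums of 3278 to 3949 TPM, below those of the SNI samples. Their excitatory neuron sums, mostly Sst, were 794 to 884 TPM, within the range of the SNI samples. The part of either sum in the Tacr1 values was not tested.

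Tac1, the substance P precursor gene (ENSRNOG00000007374), measured 61.42, 47.75 and 53.98 TPM in SNI. PLM samples had 61.93, 70.62 and 54.69 TPM and JA samples 55.46, 44.06 and 62.60 TPM. The groups overlapped as deposited, and PLM replicate 2 was the highest of all samples. PLM averaged 62.4 ± 7.98 TPM, SNI 54.4 ± 6.84 TPM and JA 54.0 ± 9.35 TPM (SD, n = 3). Tac1 in PLM versus SNI differed by 0.20 (SE 0.13, 95% interval -0.11 to 0.50, adjusted p 0.290 in limma) and by 0.44 after median-centring (SE 0.13, 95% interval 0.13 to 0.76). The second value had an unadjusted p of 0.0136 and an adjusted p of 0.179 in limma, and on that scale every PLM sample, from 5.87 to 6.27, was above every SNI sample, from 5.49 to 5.81. SNI against JA gave 0.02 (95% interval -0.35 to 0.38, adjusted p 0.968 in limma) as deposited and -0.11 after median-centring. PLM against JA gave 0.21 (95% interval -0.15 to 0.58, adjusted p 0.629 in limma) as deposited and 0.34 (adjusted p 0.554) after median-centring.

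Tac3, the neurokinin B precursor gene (ENSRNOG00000004229), stood at 63.99, 51.50 and 55.73 TPM in SNI and at 60.73, 63.60 and 48.98 TPM in PLM. JA samples had 69.41, 52.75 and 59.10 TPM, and all 3 groups overlapped. The difference from SNI to PLM was 0.01 (SE 0.12, 95% interval -0.29 to 0.31, adjusted p 0.941 in limma) and 0.26 after median-centring (95% interval -0.07 to 0.59, adjusted p 0.391). SNI against JA gave -0.08 as deposited (95% interval -0.39 to 0.24, adjusted p 0.816 in limma) and -0.20 (adjusted p 0.889) after median-centring, and PLM against JA gave -0.06 as deposited (95% interval -0.40 to 0.27, adjusted p 0.877) and 0.06 after median-centring. The Tac1 to Tac3 ratio within a sample was 1.02, 1.11 and 1.12 in PLM, 0.960, 0.927 and 0.969 in SNI and 0.799, 0.835 and 1.06 in JA. PLM lay above SNI in all samples, by 0.18 on the log2 scale, but JA replicate 3 fell inside the PLM range. The ratio was above 1 in 4 of the 9 samples.

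Mme, which encodes the membrane peptidase neprilysin that cleaves substance P (ENSRNOG00000009514), measured 1.90, 2.64 and 1.88 TPM in SNI and 1.41, 1.58 and 1.98 TPM in PLM. JA samples had 1.50, 1.24 and 3.00 TPM, so the highest and the lowest of the 9 values both came from sham-operated rats. PLM versus SNI gave -0.24 (SE 0.16, 95% interval -0.62 to 0.15, adjusted p 0.308 in limma) and 0.01 after median-centring, so the sign differed between the scales. SNI against JA gave 0.15 (95% interval -0.46 to 0.75, adjusted p 0.820 in limma) with 0.03 after median-centring, and PLM against JA -0.09 (95% interval -0.68 to 0.50, adjusted p 0.904) with 0.03 after median-centring. In GRCr8 Mme overlaps the pseudogene Eif5-ps3 and the small nucleolar RNA gene LOC120101244, and whether reads were assigned by strand was not given in the sources used here.

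**Figure D4:**
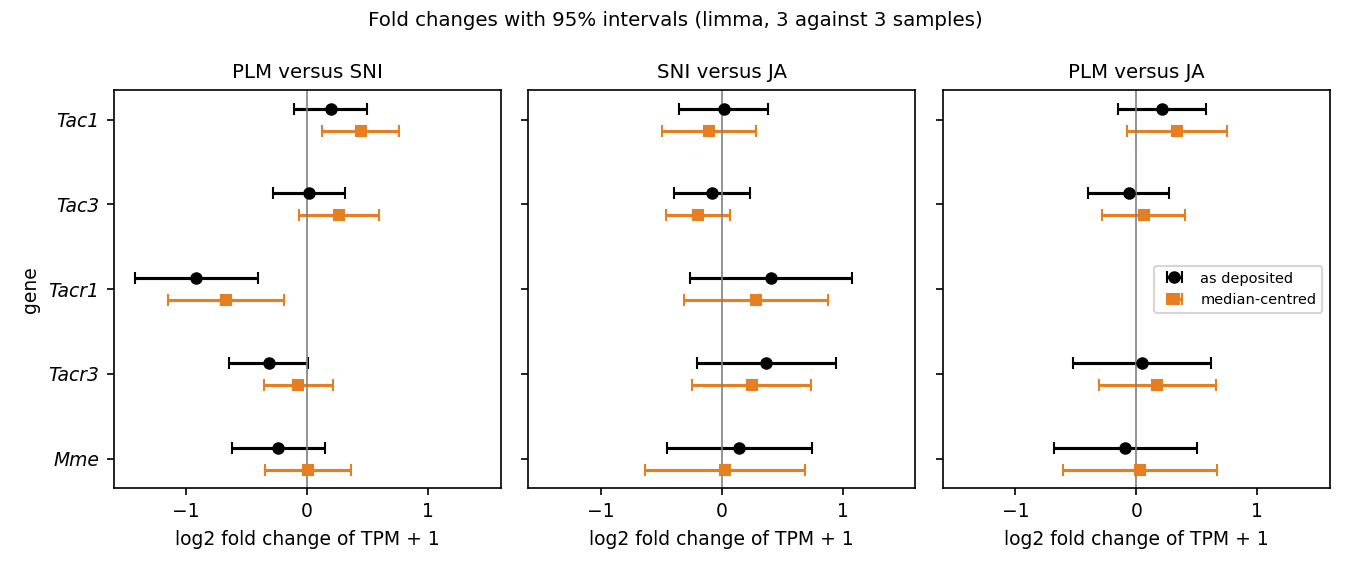
Log2 fold changes of TPM + 1 with 95% intervals from limma (3 against 3 samples) in the 3 comparisons, as deposited and median-centred. The Tacr1 interval for PLM versus SNI, -1.43 to -0.41 as deposited, lay below 0 on both scales, and Tacr1 is not shown for PLM versus JA because its mean was under 1 TPM.

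In SNI versus JA, the comparison that asks what nerve injury did to the cord, 0 of the 5 tested genes passed an adjusted p of 0.05 in limma and 0 passed an unadjusted p of 0.05. The share of all loci with an adjusted p under 0.05 was also 0, and it was 0 after median-centring. An unadjusted p under 0.05 was reached by 1104 loci (7.10%) as deposited and by 4.83% after median-centring. None of the 5 met the fold rule, against 0.688% of loci, and none had groups that did not overlap, against 13.8% of loci as deposited and 10.8% after median-centring. Tac1, Tacr1, Tacr3 and Mme were higher and Tac3 lower in mean log2 level in SNI as deposited, each with a 95% interval that held 0, and Tac1 changed sign after median-centring. In PLM versus JA, 0 of the 4 tested genes passed an adjusted or an unadjusted p of 0.05 in limma on either scale. An unadjusted p under 0.05 was reached by 11.8% of all loci as deposited and by 9.98% after median-centring. The share of loci with an adjusted p under 0.05 was 0.0195% as deposited and 0.0130% after median-centring, and 0.938% met the fold rule. None of the 4 had groups that did not overlap, against 17.7% of loci as deposited and 16.4% after median-centring.

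Downstream of the receptors, 20 genes for coupling and desensitization were tested: G protein subunits, phospholipase C isoforms, arrestins and receptor kinases among others. In PLM versus SNI, 5 of the 20 fell in limma as deposited, against 13.9% of all loci called in either direction, 0 of 20 did after median-centring (3 had an unadjusted p under 0.05, against 16.9% of all loci), and 0 rose on either scale. Plcb1, a phospholipase C isoform activated by Gq, measured 6.78, 6.25 and 5.58 TPM in SNI and 2.93, 3.05 and 4.12 TPM in PLM, and the groups did not overlap. The Plcb1 difference was -0.73 (SE 0.13, adjusted p 0.0269 in limma) as deposited and -0.48 (adjusted p 0.119) after median-centring. The isoform gene Plcb3 averaged 6.01 TPM in SNI and 4.10 TPM in PLM (adjusted p 0.0348 in limma). Arrb1, which encodes an arrestin that uncouples activated receptors, averaged 6.78 TPM in SNI and 4.52 TPM in PLM (adjusted p 0.0380 in limma). Grk5, a receptor kinase gene, averaged 11.0 TPM in SNI and 8.30 TPM in PLM (adjusted p 0.0415 in limma), and the fifth was Gna11 (adjusted p 0.0437). The median log2 fold change of the 20 was -0.31 as deposited and -0.06 after median-centring, beside -0.21 and 0.04 over all loci.

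The genes that make or remove the peptides gave 3 calls in PLM versus SNI as deposited, where 13.9% of all loci were called. Of 9 tested genes for processing of peptide precursors, 1 fell in PLM versus SNI: Cpe, the carboxypeptidase that trims cleaved precursors, had 595.19, 575.86 and 536.42 TPM in SNI and 399.23, 397.34 and 381.42 TPM in PLM. The Cpe samples of both groups did not overlap, and the difference was -0.53 (SE 0.06, adjusted p 0.00759 in limma) as deposited and -0.29 (adjusted p 0.133) after median-centring. Of 8 tested peptidases that can degrade tachykinins, Mme included, 2 fell as deposited. Prep, which encodes prolyl oligopeptidase, averaged 14.9 TPM in SNI and 11.0 TPM in PLM (adjusted p 0.0319 in limma). Ece1, which encodes an endothelin-converting enzyme that degrades substance P in endosomes, averaged 19.3 TPM in SNI and 13.4 TPM in PLM (adjusted p 0.0421 in limma). Neither call held after median-centring, and the list's median of -0.23 lay close to the -0.21 of all loci.

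Of 12 other neuropeptide and partner genes, 0 passed the test in PLM versus SNI in limma and 3 had an unadjusted p under 0.05 (5 after median-centring, against 37.1% and 16.9% of all loci), with a median log2 fold change of -0.03 as deposited and 0.22 after median-centring beside 0.04 over all loci. Somatostatin (Sst) averaged 484 ± 43.1 TPM in JA, 519 ± 43.6 TPM in SNI and 551 ± 42.7 TPM in PLM, and proenkephalin (Penk) 229 ± 46.5, 236 ± 27.8 and 250 ± 15.3 TPM in the same order (SD, n = 3). Both were several times as abundant as Tac1. Calca, the gene of calcitonin gene-related peptide, which is released with substance P, varied widely within groups, from 14.34 to 89.97 TPM in JA alone. Tac4, the precursor gene of hemokinin, stayed at or under 0.38 TPM in every sample. No gene of these 4 lists passed the limma test in SNI versus JA or PLM versus JA. At an unadjusted p under 0.05 there was 1 gene in each list in SNI versus JA, and 4 coupling genes and 1 peptidase gene in PLM versus JA, as deposited, against 7.10% and 11.8% of all loci.

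**Figure D5:**
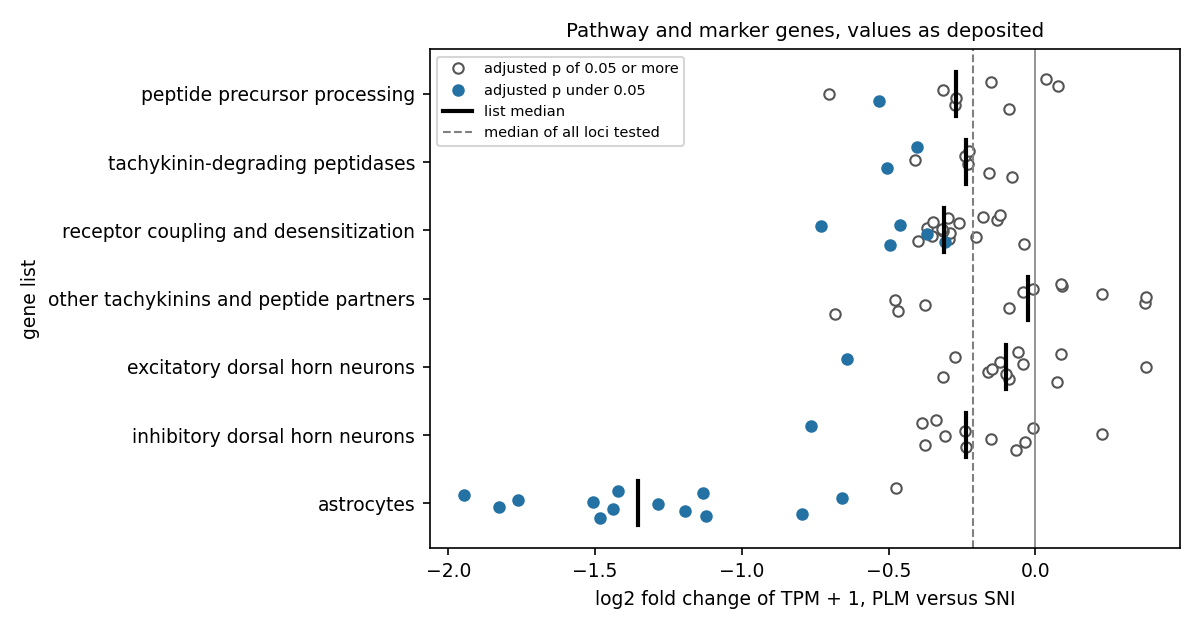
Log2 fold changes of TPM + 1 in PLM versus SNI as deposited, for 4 pathway lists, both dorsal horn neuron lists and astrocytes, with 1 point per gene, filled for an adjusted p under 0.05 in limma, and lines for the list medians and the median of all loci (dashed). Cpe at -0.53 and Plcb1 at -0.73 were among the genes that fell, the 20 coupling genes had a median of -0.31, and the astrocyte genes lay furthest left with a median of -1.35.

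The genes whose levels across the 9 samples were most like each member's were named by the mean absolute difference of their log2 deviations, over 13953 loci. For Tac1 they were LOC691995 (0.0605), Crabp1 (0.0698) and Penk (0.0739), against a median of 0.248 over loci. For Tac3 they were Coro1a (0.0559), Aarsd1 (0.0572) and Ly6h (0.0583), with a median of 0.198. Tacr1 was nearest to Pygb (0.0741), Adgrg1 (0.0762) and Nipal3 (0.0891), with a median of 0.338. Tacr3 had Ncoa7 (0.0468), Dffa (0.0506) and Fgf11 (0.0554) nearest, with a median of 0.201, and Mme had Glod4 (0.0620), LOC108349244 (0.0634) and Ddx10 (0.0693), with a median of 0.249. Values of 1 sample come from 1 library, so nearness describes these 9 samples only.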

How the data were processed

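RNA sequencing was done on 9 spinal cord samples, 3 per group, with an Illumina TruSeq RNA library kit. According to the study's methods reads were trimmed of adaptors and filtered at a quality of 20 by the authors, who mapped the rest with HISAT2 and computed expression with StringTie, and the submitters' processing notes name fastp 0.19.5. The deposited values are TPM per gene, given to 2 decimals. Those notes name the build GRCh38.p13, a human assembly, although the identifiers are rat Ensembl genes, and a rat build was not given in the sources used here. TPM keeps no depth, so the depth behind each value is unknown and no counting interval is given.

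From these values, log2(TPM + 1) was tested with limma 3.58.1 (R 4.3.3), with a mean-variance trend, in the 6 samples of each comparison, over loci averaging 1 TPM or more, with Benjamini-Hochberg adjustment over all of them (threshold 0.05). The fold rule used an unadjusted p under 0.05 with an absolute log2 fold change above 1. Exact permutation tests, two-sided, were run per gene. The fit was tested on simulated data. Groups came from the sample titles. The 6 genes and the gene lists were chosen with earlier results of these data known. Named genes were all 6 members, the 3 nearest patterns of each, up to 4 called genes of each pathway list by smallest p, and cell type markers beside a result. Gna11, a called gene beyond the first 4 of its list, was named after its value was seen. The alternatives were another pseudocount (0.1), other filters on low levels, median-centring, quantile normalisation, removal of mitochondrial genes, a fit of all 9 samples, a replicate block and each sample left out.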

Additional observations from a re-analysis of the deposited data

How the results depend on the processing

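Over the 20 results with an alternative, 230 values were recomputed. Of these, 220 kept the call, stayed uncalled or, for the untested ratios, moved by less than the spread between samples, and the 10 that did not were all Tacr1 in PLM versus SNI, which lost its call. Its log2 fold change was -0.67 after median-centring (adjusted p 0.181 in limma), -0.77 after quantile normalisation (0.163), -1.00 without mitochondrial genes (0.102) and -0.92 with all 9 samples in the fit (0.0646). With the replicate block it was -0.92 (adjusted p 0.132). Leaving out 1 sample at a time gave -1.04 to -0.73. It held with no filter on low levels (adjusted p 0.0416), with a pseudocount of 0.1 (log2 fold change -1.79) and without SNI replicate 2, and the adjusted p ranged from 0.0371 to 0.181 over 13 alternatives. The cause of these losses was not tested. A minimum of 1 TPM in every sample left Tacr1 untested. No alternative was run for Tacr2 or for Tacr1 in PLM versus JA, which were fitted only without a filter. Uncalled fold changes of Tac1, Tac3, Tacr3 and Mme changed sign under some alternatives, and none was called under any.

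No clear pairing of samples by replicate number was found, and with 3 samples per group this check could not exclude it. Deviations of samples with the same number correlated across genes with r of 0.03, -0.02 and -0.01 in PLM and SNI, 0.13, -0.05 and 0.06 in SNI and JA, and -0.02, -0.01 and 0.10 in PLM and JA. In these 3 comparisons 2, 3 and 2 of the 6 samples correlated best with their own number. Unknown depth limits Tacr1, Tacr2, Tacr3 and Mme most, since their values are low and given to 2 decimals.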
